A study of Homo sapiens with 6 samples.

Results

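The 10 genes described here make up the core of the transforming growth factor beta (TGF-beta) pathway in the breast cancer line MDA-MB-231, which is triple-negative: the ligands TGFB1 and TGFB2, the receptors TGFBR1, TGFBR2 and TGFBR3, and the SMADs SMAD2, SMAD3, SMAD4, SMAD6 and SMAD7. They were taken by gene symbol, and all 10 were found among the 25365 rows of the deposited expression table. RNA-seq was done on 3 libraries of cells given si-NRDE2-2, a single siRNA (Ambion s30064) against the nuclear RNA-processing factor NRDE2, and 3 libraries of cells given si-Control (Ambion AM4611). Both siRNAs were used at 20 nM with a lipid reagent, and RNA was taken after 48 h. The comparison asks how loss of NRDE2 changes mRNA levels, and here how it changes those of the TGF-beta pathway. The labels do not give the source of each replicate, so p-values reflect only how far these libraries spread, which may be technical.

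TGF-beta is secreted in a latent complex and, once released, binds TGFBR2, which recruits and phosphorylates the type I receptor TGFBR1. TGFBR3, also called betaglycan, is a co-receptor that presents ligand, TGF-beta 2 above all, to TGFBR2. Active TGFBR1 phosphorylates SMAD2 and SMAD3, which join SMAD4 and enter the nucleus to act on target genes, while SMAD6 and SMAD7 are inhibitors, SMAD7 of the TGF-beta branch and SMAD6 mainly of the BMP branch. In breast tissue the pathway restrains growth of normal epithelium, and in advanced cancer it is known for driving invasion and mesenchymal traits, for which MDA-MB-231 is a common model.

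Values are FPKM as deposited, that is, fragment counts divided by transcript length and by sequencing depth. Levels set side by side between genes rest on the transcript lengths used, which are not given. Estimated depth ran from 42000000 to 57700000 fragments per library. NRDE2 had 0.230, 0.234 and 0.229 FPKM with si-NRDE2-2 and 4.39, 4.45 and 3.8 FPKM with si-Control, so every library matched its label. The line's markers VIM, CD44, EGFR, CAV1 and KRT18 lay between 31.8 and 1260 FPKM, and their summed level was 1871 to 1919 FPKM with si-NRDE2-2 and 1793 to 1952 FPKM with si-Control. VIM made up most of that sum. With si-NRDE2-2 against si-Control, mean CD44 was 182 against 152 FPKM (limma, adjusted p = 0.00079) and mean KRT18 314 against 273 FPKM (limma, adjusted p = 0.00878). Both were called higher, and VIM, EGFR and CAV1 had no call. ESR1, PGR and CDH1 stayed under the filter of 1 FPKM in 3 libraries, whereas ERBB2 and EPCAM did not, with at most 12.9 FPKM. ERBB2 was called lower, with means of 10.6 FPKM with si-NRDE2-2 and 12.8 FPKM with si-Control (limma, adjusted p = 0.00111). EPCAM had no call. Of 7 leukocyte, endothelial and fibroblast markers only CD68 passed that filter, and it rose. PTPRC, CD3E, CDH5, DCN and PDGFRA were at or near 0. PECAM1, an endothelial marker, was not tested but was higher in the knockdown without overlap, with 1.18, 0.958 and 1.15 FPKM with si-NRDE2-2 and 0.635, 0.525 and 0.688 FPKM with si-Control. The 7 summed to 74.0 to 77.7 FPKM with si-NRDE2-2 and 62.7 to 68.1 FPKM with si-Control, nearly all of it CD68, and their part in the results was not tested. A log2 fold change is given for si-NRDE2-2 over si-Control on the log2(FPKM + 0.1) scale with its standard error (SE), a scale that makes the change of low genes look smaller. A ratio divides 1 group's mean FPKM by the other's. Adjusted p-values come from limma over all 11791 tested genes, and a gene is called changed at an adjusted p under 0.05.

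After NRDE2 knockdown 5 of the 10 genes changed, all by little. SMAD3, TGFBR1, SMAD7 and TGFBR2 rose by 1.21- to 1.30-fold, TGFB1 fell to 0.821 times its control level, and TGFB2, TGFBR3, SMAD2, SMAD4 and SMAD6 did not pass the test. All 10 genes passed the filter on low values. Of all tested genes 44.0% were called, 20.9% higher and 23.0% lower, so 5 of 10 is close to that background and says nothing particular about the family. The same 5 genes were those whose groups of libraries did not overlap, which was so for 53.5% of all tested genes (25.2% higher and 28.3% lower). The median log2 change was 0.08 over the 10 genes and -0.02 over all tested genes. Of all tested genes 13.3% changed at least as much as SMAD3 in either direction and 22.0% at least as much as TGFB1.

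**Figure D1:**
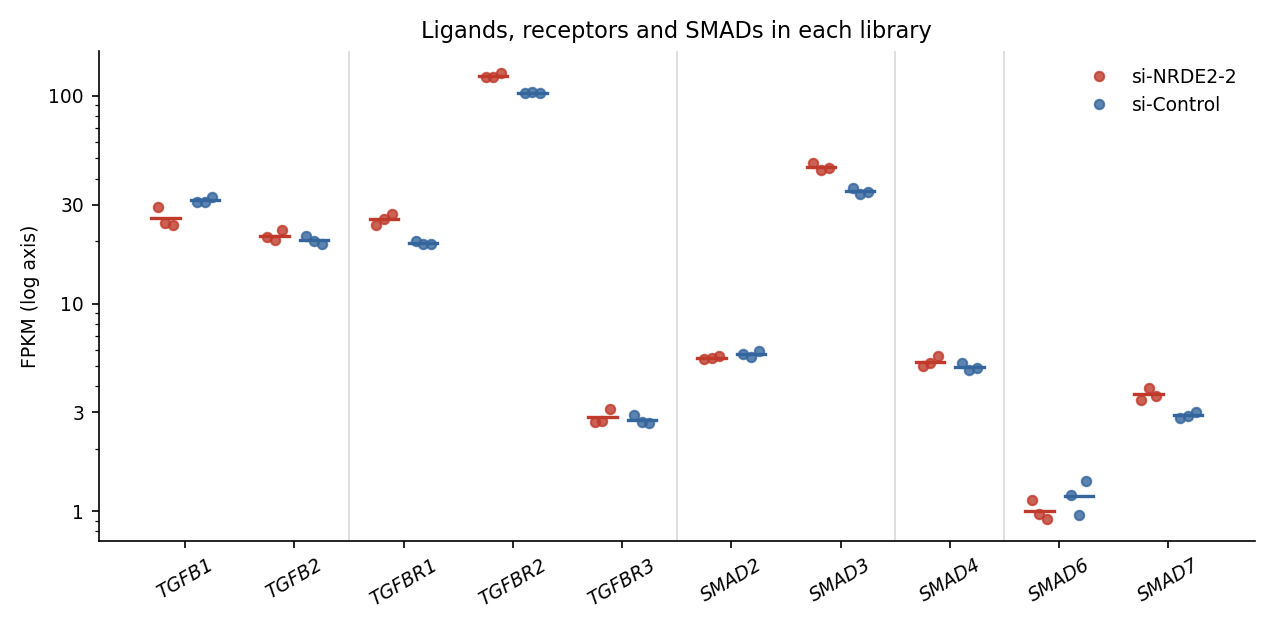
FPKM (log axis) of each gene in each library, with si-NRDE2-2 libraries in red to the left and si-Control libraries in blue to the right; each point is 1 library and each bar the mean of 3. SMAD3, TGFBR1, TGFBR2 and SMAD7 lie higher with si-NRDE2-2 and TGFB1 lower, with no overlap between groups, while the other 5 genes overlap.

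TGFB1 encodes the ligand TGF-beta 1. It had 29.3, 24.4 and 23.8 FPKM with si-NRDE2-2 and 30.9, 31.0 and 32.5 FPKM with si-Control. Replicate 1 of si-NRDE2-2 lay close to the control libraries, and the groups did not overlap. The mean was 25.8 ± 3.05 FPKM against 31.5 ± 0.916 FPKM (SD, n = 3 each), a log2 fold change of -0.29 ± 0.07 (limma, adjusted p = 0.00662). It was -0.38 without si-NRDE2-2 replicate 1 and -0.23 without replicate 3, still called in both. TGFB1 has the most GC-rich transcript of the 10 (63.5% GC), and high-GC genes fell more often here: in the GC-richest of 3 equal groups 17.9% of genes were called higher and 27.7% lower, against 24.5% and 18.5% in the GC-poorest. TGFB1 fell by 0.24 on the log2 scale once these trends and those with length were removed. SMAD6 and SMAD7 (58.8% and 58.7% GC) also lie in the GC-richest group, where SMAD7 was called higher and SMAD6 had no call. Whether GC content has a part in the fall of TGFB1 was not tested. Its locus is overlapped on the opposite strand by TMEM91, CCDC97, HNRNPUL1 and AC011462.1, which share 0 exon bases with it. TMEM91 was called lower (log2 fold change -0.40, limma adjusted p = 0.0109), while CCDC97 and HNRNPUL1 had no call (0.03 and 0.07). AC011462.1 is not a row of the table. Any part of these genes in the fall of TGFB1 was not tested.

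TGFB2 encodes the ligand TGF-beta 2, which depends on TGFBR3 for efficient receptor binding. It had 20.9, 20.2 and 22.6 FPKM with si-NRDE2-2 and 21.1, 20.1 and 19.4 FPKM with si-Control, and the groups overlapped. Its log2 fold change was 0.07 ± 0.05 with a 95% interval of -0.05 to 0.19 (limma, adjusted p = 0.301). An annotated transcript, TGFB2-OT1, which is not a row of the table, shares 1371 exon bases with TGFB2 on the same strand, so its reads cannot be told apart from those of TGFB2. The remaining isoform, TGFB3, was under the filter and not tested, with 0.722, 0.747 and 0.650 FPKM with si-NRDE2-2 and 0.578, 0.473 and 0.497 FPKM with si-Control. Summed over TGFB1 and TGFB2, ligand mRNA was 50.3, 44.5 and 46.4 FPKM with si-NRDE2-2 and 51.9, 51.1 and 51.9 FPKM with si-Control.

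TGFBR1 is the type I receptor kinase that phosphorylates SMAD2 and SMAD3. Its level was 24, 25.5 and 27.1 FPKM with si-NRDE2-2 and 20.0, 19.4 and 19.3 FPKM with si-Control. All libraries of the knockdown lay above all controls, with a ratio of 1.30 and a log2 fold change of 0.38 ± 0.05 (limma, adjusted p = 0.00015). TGFBR2, the ligand-binding type II kinase, was the most abundant of the 10 mRNAs. It had 123, 124 and 129 FPKM with si-NRDE2-2 and 103, 104 and 103 FPKM with si-Control. The control libraries were tightly grouped and all below those of the knockdown, with a ratio of 1.21 and a log2 fold change of 0.27 ± 0.04 (limma, adjusted p = 0.00042). The co-receptor gene TGFBR3 was scarce, at 2.69, 2.71 and 3.09 FPKM with si-NRDE2-2 and 2.91, 2.70 and 2.66 FPKM with si-Control. These values overlapped, with a log2 fold change of 0.03 and a 95% interval of -0.14 to 0.21 (limma, adjusted p = 0.747).

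SMAD2 and SMAD3 are the receptor-activated SMADs of this branch, and only SMAD3 binds DNA directly in its common form. SMAD3 had 47.3, 44.0 and 44.8 FPKM with si-NRDE2-2 and 36.2, 33.8 and 34.4 FPKM with si-Control. The gap between the groups was wider than the range within either, with a ratio of 1.30 and a log2 fold change of 0.38 ± 0.05 (limma, adjusted p = 7.5e-05), the smallest adjusted p of the family. SMAD2 had 5.43, 5.44 and 5.62 FPKM with si-NRDE2-2 and 5.74, 5.50 and 5.89 FPKM with si-Control. Its groups overlapped and its log2 fold change was -0.05, with a 95% interval of -0.18 to 0.07 (limma, adjusted p = 0.460). That interval ends below the lower bound of the interval of SMAD3, 0.28. SMAD3 made up 89.7%, 89.0% and 88.9% of the summed SMAD2 and SMAD3 level with si-NRDE2-2, and 86.3%, 86.0% and 85.4% with si-Control.

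SMAD4 is the partner that SMAD2 and SMAD3 share. It had 4.99, 5.18 and 5.58 FPKM with si-NRDE2-2 and 5.19, 4.80 and 4.89 FPKM with si-Control, and the groups overlapped. Its log2 fold change was 0.08, with a 95% interval of -0.06 to 0.22 (limma, adjusted p = 0.330). An annotated protein-coding locus, AC091551.1, shares 814 exon bases with SMAD4 on the same strand and is not a row of the table. The summed level of SMAD2 and SMAD3 was 10.6, 9.53 and 9.04 times that of SMAD4 with si-NRDE2-2 and 8.09, 8.18 and 8.25 times with si-Control.

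The inhibitory SMADs were both low. SMAD7, which blocks TGFBR1 and brings ubiquitin ligases to it, had 3.44, 3.94 and 3.57 FPKM with si-NRDE2-2 and 2.80, 2.88 and 3 FPKM with si-Control. The groups did not overlap, with a ratio of 1.26 and a log2 fold change of 0.32 ± 0.07 (limma, adjusted p = 0.00417). SMAD6 had 1.13, 0.964 and 0.920 FPKM with si-NRDE2-2 and 1.19, 0.954 and 1.40 FPKM with si-Control. The groups overlapped, and the log2 fold change was -0.20 with a 95% interval of -0.50 to 0.09 (limma, adjusted p = 0.247). Leaving out si-Control replicate 2 gave -0.33 and leaving out si-Control replicate 3 gave -0.08, with no call in either. SMAD6 rested on an estimated 148 to 272 fragments per library, a counting error of 8.22% in the shallowest, and a fall as large as the rise of SMAD7 lies within its interval. For the other 9 genes that error was at most 3.88%. SMAD7 was 3.03, 4.09 and 3.88 times as high as SMAD6 with si-NRDE2-2 and 2.36, 3.02 and 2.15 times with si-Control, and together they had 4.57, 4.91 and 4.49 FPKM with si-NRDE2-2 and 3.99, 3.84 and 4.4 FPKM with si-Control. Both sets of values were higher in all 3 knockdown libraries than in any control, for the ratio only just.

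**Figure D2:**
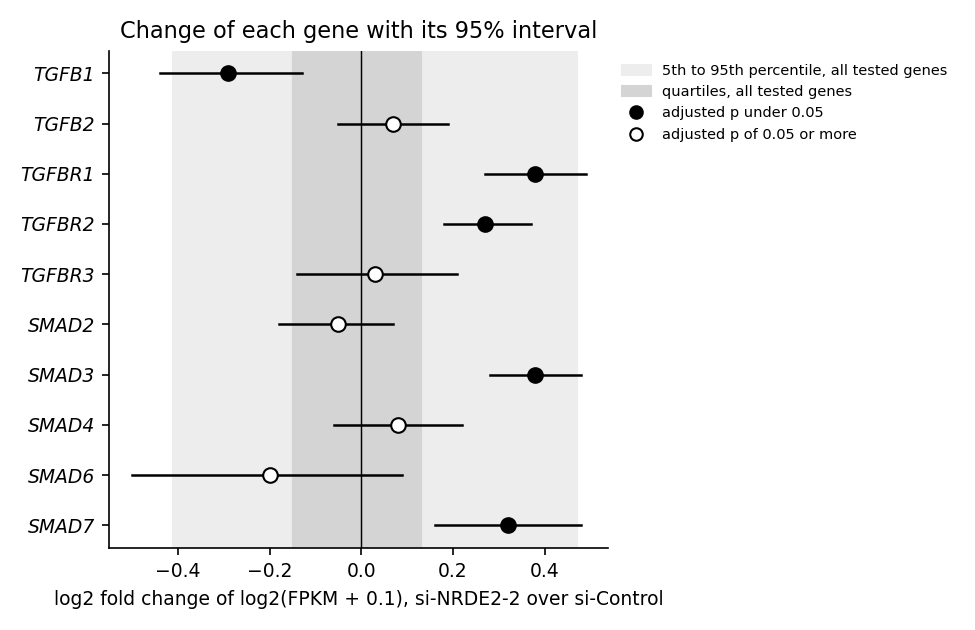
Log2 fold change of si-NRDE2-2 over si-Control on the log2(FPKM + 0.1) scale for each gene, with its 95% interval as a line; filled points have an adjusted p under 0.05 and the grey bands show the quartiles and the 5th to 95th percentiles of all tested genes. The 5 changed genes lie outside the quartiles of -0.15 and 0.13 but inside the range of -0.41 to 0.47.

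The order of the levels was nearly the same in both groups. TGFBR2 was first and SMAD3 second in all 6 libraries, and SMAD6 was last in all 6. In the knockdown TGFB1 and TGFBR1 overlapped, with means of 25.8 and 25.5 FPKM, and both lay above TGFB2 with 21.2 FPKM. In controls TGFB1 was clear of TGFB2, and TGFB2 and TGFBR1 overlapped, with means of 20.2 and 19.6 FPKM. SMAD2 and SMAD4 overlapped in the knockdown but not in controls, and SMAD7 and TGFBR3 overlapped in controls but not in the knockdown. TGFB1 was 1.22, 0.954 and 0.876 times the level of TGFBR1 with si-NRDE2-2 and 1.54, 1.6 and 1.68 times with si-Control.

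Ratios between paired genes, taken within each library, do not depend on how libraries are scaled. They were not computed with the GC and length trends removed. Transcript GC content is 63.5% for TGFB1 and 38.6% for TGFB2, and 50.4% for SMAD3 and 37.9% for SMAD2. The ratio of SMAD3 to SMAD2 was 8.71, 8.09 and 7.97 with si-NRDE2-2 and 6.31, 6.13 and 5.84 with si-Control, a log2 difference of 0.44 (two-sided exact permutation test, p = 0.10). The ratio of TGFB2 to TGFB1 was 0.714, 0.829 and 0.95 with si-NRDE2-2 and 0.683, 0.649 and 0.598 with si-Control, a log2 difference of 0.36 (exact permutation, p = 0.10). Both ratios were higher in all 3 knockdown libraries than in any control. The ratio of TGFBR2 to TGFBR1 was 5.12, 4.84 and 4.77 with si-NRDE2-2 and 5.15, 5.37 and 5.35 with si-Control, lower in all 3 knockdown libraries by a small margin (log2 difference -0.11, exact permutation, p = 0.10). With 3 libraries against 3, 0.10 is the smallest p this test can give, and the 3 ratios have the same value after adjustment over the 3, so the design cannot pass a threshold of 0.05 here.

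**Figure D3:**
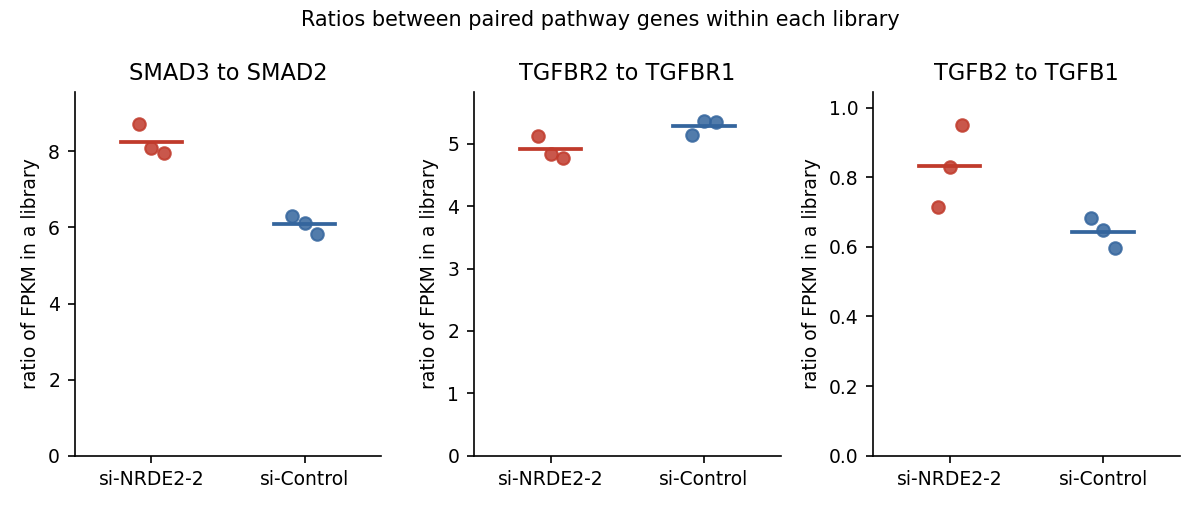
Ratio of FPKM between paired genes within each library (linear axes from 0), with si-NRDE2-2 in red on the left and si-Control in blue on the right; points are libraries and bars are means of 3. SMAD3 to SMAD2 averages 8.26 with si-NRDE2-2 and 6.09 with si-Control, and TGFB2 to TGFB1 averages 0.831 and 0.643 in the same order.

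The sequences that follow are RefSeq promoter windows (build GRCh38.p14, 250 bases before to 50 after an annotated start) of the 3 genes with the smallest adjusted p that rose and of TGFB1, which fell. They are shown so that genes that moved together can be set beside the one that moved the other way. Capitals mark matches to GGGCGG, the GC box bound by SP1-type factors, or TGANTCA, the AP-1 site, on either strand. The windows read 5′ to 3′ on the strand of the gene, and for a gene with several annotated starts the one nearest the GENCODE start of its main transcript was used.
SMAD3 window, chr15:67065352-67065651, plus strand: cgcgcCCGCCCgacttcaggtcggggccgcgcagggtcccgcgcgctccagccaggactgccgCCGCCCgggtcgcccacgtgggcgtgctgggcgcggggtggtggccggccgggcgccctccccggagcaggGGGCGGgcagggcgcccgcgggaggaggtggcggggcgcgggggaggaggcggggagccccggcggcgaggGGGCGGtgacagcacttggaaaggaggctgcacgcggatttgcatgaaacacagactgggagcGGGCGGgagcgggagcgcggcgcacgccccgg
TGFBR1 window, chr9:99104833-99105132, plus strand: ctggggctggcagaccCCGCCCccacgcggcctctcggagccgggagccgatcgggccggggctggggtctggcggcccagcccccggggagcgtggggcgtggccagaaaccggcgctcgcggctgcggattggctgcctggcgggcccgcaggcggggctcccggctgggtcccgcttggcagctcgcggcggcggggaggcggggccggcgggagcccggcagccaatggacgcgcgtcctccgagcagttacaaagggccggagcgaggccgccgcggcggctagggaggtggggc
TGFBR2 window, chr3:30606351-30606650, plus strand: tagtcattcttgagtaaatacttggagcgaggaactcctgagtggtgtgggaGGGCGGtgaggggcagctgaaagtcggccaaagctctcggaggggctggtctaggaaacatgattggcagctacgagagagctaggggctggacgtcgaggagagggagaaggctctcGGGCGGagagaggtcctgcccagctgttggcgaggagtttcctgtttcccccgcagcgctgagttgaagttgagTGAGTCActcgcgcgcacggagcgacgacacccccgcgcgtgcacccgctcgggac
TGFB1 window, chr19:41353873-41354172, minus strand: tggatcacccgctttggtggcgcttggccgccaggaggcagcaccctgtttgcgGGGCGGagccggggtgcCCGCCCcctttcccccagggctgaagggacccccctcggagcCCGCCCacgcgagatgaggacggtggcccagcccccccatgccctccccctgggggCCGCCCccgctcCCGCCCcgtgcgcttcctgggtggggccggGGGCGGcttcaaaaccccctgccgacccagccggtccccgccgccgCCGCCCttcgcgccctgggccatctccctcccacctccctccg

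All 10 genes had a window in that table. SMAD3, TGFBR1 and TGFB1 windows were rich in GC (80.3%, 80% and 77.3%), that of TGFBR2 less so (61.7%), and the median over 35116 windows was 58.7%. GC boxes numbered 5 in the SMAD3 window, 1 for TGFBR1, 2 for TGFBR2 and 7 for TGFB1, so genes that rose and the gene that fell both held them. Of all windows 45.0% held at least 1. TGFBR2 alone among the 10 held the AP-1 letters, at position -6 from the start, and 7.71% of all windows hold them. TATAAA was found in the window of TGFB2 (11.5% of all windows), and GTCTAGAC, the palindrome that SMAD3 and SMAD4 bind, in that of SMAD6 (0.202% of all windows). Neither TGFB2 nor SMAD6 passed the test. The starts used for SMAD7 and TGFB2 lie 1087 and 899 bases from their GENCODE starts. For SMAD2, SMAD3, TGFBR3 and TGFBR2 the distance is 269, 243, 128 and 99 bases, and for the remaining genes at most 11. The SMAD7 window held none of the 4 motifs, which says only that these letters are not in this window. All 4 were searched on both strands, and no matches of different motifs overlapped.

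**Figure D4:**
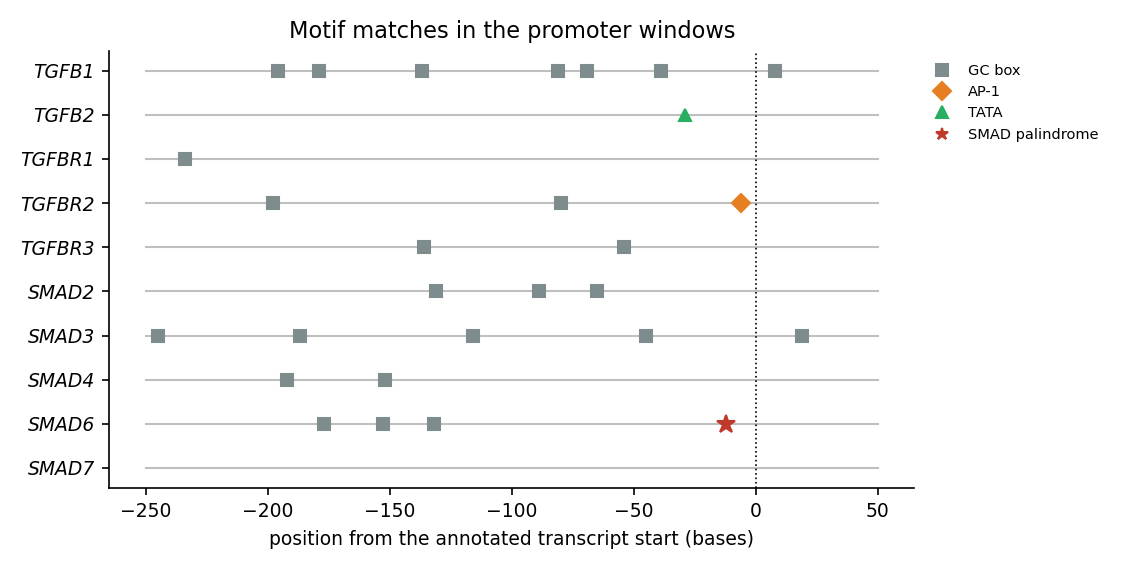
Matches to 4 motifs in the promoter window of each gene, by position in bases from the annotated transcript start; symbols mark the first base of a match on either strand. GC boxes lie in the windows of genes that rose, of TGFB1, which fell, and of genes with no call.

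Sites in 3′ untranslated regions (UTRs) were also read. In these data, genes that hold the string GACGTA, the string GACAGTA or the string GACTGTA there rose more often than genes without. Those strings were picked from these same fold changes, so their presence supports nothing independently. Among 10633 tested genes with an annotated 3′ UTR, 18% held at least 1. Of the genes with a string 39.9% were called higher and 12.1% lower, and of those without 17.2% were called higher and 25.4% lower. In the family 3 genes held 1 copy each, shown here from GENCODE release 29 transcripts with the string in capitals.
TGFBR2, chromosome 3: gtggttctctGACTGTAaaacagtgaa
TGFB2, chromosome 1: aactggtctaGACAGTAtcccctgtag
SMAD4, chromosome 18: cagatgtattGACTGTAccacagacac

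Of these 3 genes TGFBR2 rose, while TGFB2 and SMAD4 had no call. SMAD3, TGFBR1 and SMAD7, which rose, and TGFB1, which fell, held none. Only 1 siRNA against NRDE2 and 1 control siRNA were used. Effects of either sequence on TGFBR2 and the other genes cannot be told apart from loss of NRDE2.

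Genes around the family, from lists chosen by function, also moved in both directions (values after ± are SEs of log2 fold changes). Of 13 tested other ligands, latency proteins and activators, 6 rose and 2 fell, where 20.9% of all tested genes rose and 23.0% fell. INHBB, the activin B subunit, had 6.35, 6.28 and 5.99 FPKM with si-NRDE2-2 and 3.58, 3.69 and 3.8 FPKM with si-Control (log2 fold change 0.73 ± 0.06, limma adjusted p = 3.5e-06). The latent TGF-beta binding proteins, which hold the ligand in the matrix, split: LTBP1 rose by 0.37 ± 0.05 (adjusted p = 9.7e-05), while LTBP3 fell by 0.46 ± 0.06 (adjusted p = 0.00018) and LTBP4 fell by 0.35 ± 0.07 (adjusted p = 0.00177), all from limma on the log2 scale. LTBP1 had 13.2, 13.7 and 13.9 FPKM with si-NRDE2-2 and 10.5, 10.2 and 10.7 FPKM with si-Control. LTBP3 had 7.12, 6.57 and 6.06 FPKM with si-NRDE2-2 and 9.18, 9.05 and 8.97 FPKM with si-Control. LTBP2 had no call (-0.12 ± 0.07, limma adjusted p = 0.203). FURIN, the protease that cleaves the TGF-beta 1 precursor, rose by 0.24 ± 0.04. INHBA, ITGAV and THBS1 also rose, by 0.33 ± 0.09, 0.24 ± 0.07 and 0.22 ± 0.05. The 5 tested genes left, LTBP2 among them, had no call. Another 8 were under the filter, among them TGFB3 and the activating integrin subunit genes ITGB6 and ITGB8.

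In the activin and BMP branch, which uses related receptors and SMADs, 5 of 13 tested genes rose and 1 fell. That is 46.2% called, close to the 44.0% of all tested genes. The type I receptor genes ACVR1B, which serves activin, and ACVR1, which serves BMPs, rose by 0.40 ± 0.07 and 0.26 ± 0.05. The BMP antagonist gene NOG rose by 0.22 ± 0.04 and the procollagen protease gene BMP1 by 0.18 ± 0.04, while the ligand gene BMP2 had 0.760, 0.773 and 0.850 FPKM with si-NRDE2-2 and 1.1, 1.16 and 1.13 FPKM with si-Control (-0.46 ± 0.09, limma adjusted p = 0.00255). BMP2 passed the filter on low values only through its si-Control libraries, where it was higher, so it could enter the count only as lower. With no filter its adjusted p was 0.00600. Of the BMP-type SMADs, SMAD5 rose by 0.32 ± 0.08. SMAD1 was at -0.29 ± 0.11 (adjusted p = 0.0548), just short of the threshold, and SMAD9 was under the filter. Correcting for GC content and length gave SMAD1 an adjusted p of 0.0465, leaving out si-Control replicate 1 gave 0.0165 and leaving out si-NRDE2-2 replicate 3 gave 0.0397. Of the ID genes, which BMP signals raise, ID1 rose by 0.19 ± 0.05 (adjusted p = 0.0122), a call lost without si-NRDE2-2 replicate 2 (adjusted p = 0.0548), and ID3 was at -0.02 ± 0.12.

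Of 28 tested SMAD regulators other than SMAD7, 5 rose and 8 fell. The share called, 46.4%, is close to the 44.0% of all tested genes. SMURF2, a ubiquitin ligase that SMAD7 brings to TGFBR1, had 81.2, 84.9 and 87.6 FPKM with si-NRDE2-2 and 66.2, 65.7 and 63.0 FPKM with si-Control (0.38 ± 0.05, limma adjusted p = 6.3e-05). WWP1, another ligase of that family, fell by 0.32 ± 0.04. USP11 and USP4, deubiquitinases that stabilise TGFBR1, fell by 0.46 ± 0.05 and 0.32 ± 0.04. USP11 had 17.0, 16.8 and 15.9 FPKM with si-NRDE2-2 and 22.2, 23.7 and 22.7 FPKM with si-Control. PPP1R15A, a phosphatase subunit that works with SMAD7 on TGFBR1 and is also a stress-response gene, fell by 0.46 ± 0.05. The median log2 change of this list was -0.03.

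Genes known to be raised by TGF-beta moved both ways. Of 29 tested targets other than SMAD7, 11 rose, 6 fell and 12 had no call, with a median of 0.08, against 20.9% higher and 23.0% lower among all tested genes. SNAI2, a repressor of epithelial genes, had 12.1, 12.7 and 12.2 FPKM with si-NRDE2-2 and 7.82, 8.47 and 8.07 FPKM with si-Control (0.60 ± 0.05, limma adjusted p = 6.3e-06). LOX, which cross-links collagen, had 12.0, 12.3 and 13.6 FPKM with si-NRDE2-2 and 9.04, 8.52 and 9.37 FPKM with si-Control. The cell cycle inhibitor gene CDKN1A and the matrix genes FN1 and TGFBI rose by 0.70 ± 0.04, 0.68 ± 0.05 and 0.53 ± 0.04. CTGF, a matricellular protein gene often read as a target of the pathway, had 155, 145 and 139 FPKM with si-NRDE2-2 and 142, 146 and 143 FPKM with si-Control, and its groups overlapped (0.03 ± 0.05, adjusted p = 0.690). Those that fell were COL1A1 (-0.56 ± 0.09), ACTA2 (-0.46 ± 0.15), SPHK1 (-0.43 ± 0.07), CYR61 (-0.25 ± 0.06), BHLHE40 (-0.21 ± 0.04) and ITGA5 (-0.17 ± 0.04). The call of ACTA2, the smooth muscle actin gene, was lost with no filter on low values (adjusted p = 0.0877). Leaving out si-NRDE2-2 replicate 2, si-Control replicate 1 or si-Control replicate 3 also ended it (0.0843, 0.0611 and 0.0949). Some of these targets were already known to rise or fall in these data when the list was drawn up, so their counts do not stand as independent evidence, and many answer to other signals as well.

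In the SMAD-independent branch, where TGFBR1 acts through the kinase TAK1, 4 of 10 tested genes rose and 2 fell, beside 20.9% higher and 23.0% lower among all tested genes. MAP3K7, which encodes TAK1, had 7.98, 8.53 and 8.87 FPKM with si-NRDE2-2 and 6.88, 6.52 and 6.54 FPKM with si-Control (0.34 ± 0.06, limma adjusted p = 0.00071). The genes of its adaptor proteins TAB3 and TAB2 rose by 0.39 ± 0.07 and 0.21 ± 0.04, and MAPK14, which encodes the p38 alpha kinase, rose by 0.27 ± 0.04. MAP2K3, the kinase directly above p38, fell by 0.30 ± 0.06, and MAPK8, which encodes the kinase JNK1, fell by 0.22 ± 0.05.

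**Figure D5:**
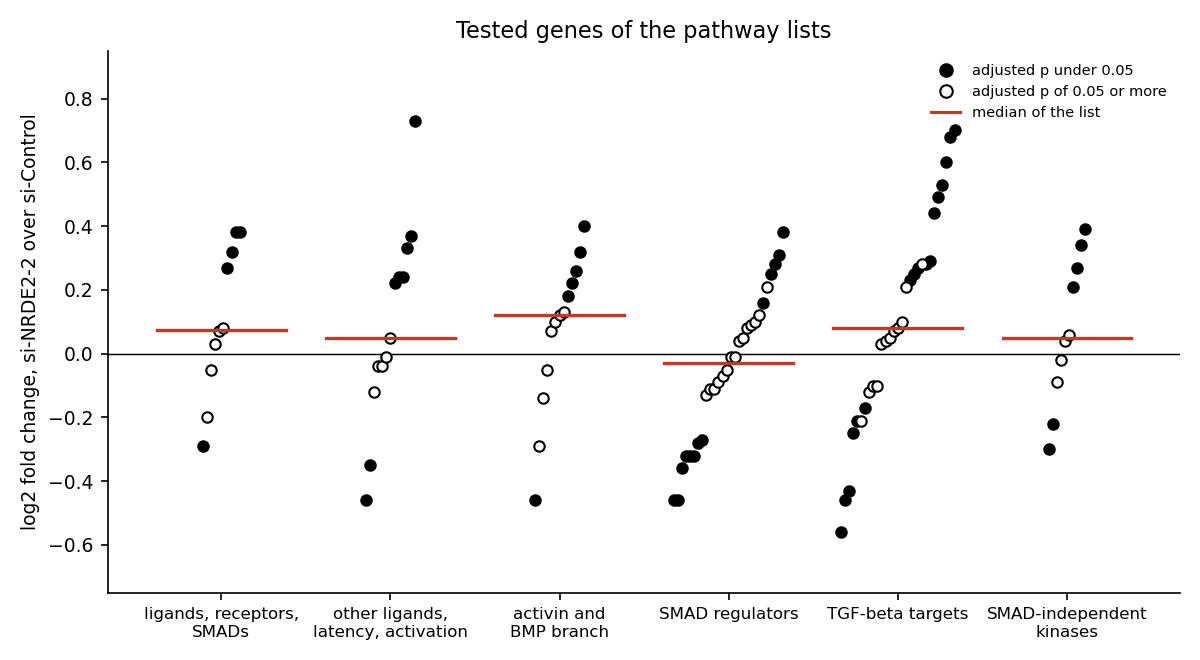
Log2 fold change of si-NRDE2-2 over si-Control for every tested gene of the family and of 5 related lists (the 10 family members left out of the others); filled points have an adjusted p under 0.05 and red lines are list medians. Genes lie on both sides of 0 in every list, with medians from -0.03 for the SMAD regulators to 0.12 for the activin and BMP branch.

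The tested genes whose profile over the 6 libraries was most like that of SMAD3, the family member with the smallest adjusted p, were APCDD1L-AS1, CTBP1-AS2 and ANKLE2, with Pearson's r of 0.9959, 0.9944 and 0.9943 on log2(FPKM + 0.1). These r values are a description: the 6 libraries fall into 2 groups, and 666 tested genes had an r of at least 0.95. ANKLE2, a nuclear envelope protein gene, had 16.0, 15.4 and 15.7 FPKM with si-NRDE2-2 and 14.4, 14.0 and 13.9 FPKM with si-Control. APCDD1L-AS1 and CTBP1-AS2 are antisense loci, and since the strand setting of the counting is not given, their reads may belong in part to the genes opposite.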

How the data were processed

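RNA was made into libraries with a TruSeq stranded mRNA kit, per the labels' protocols. The submitters' processing notes name STAR 2.5.1b, hg19 and DESeq2 1.10.1, with no role stated. The authors deposited 1 FPKM value per gene and library, unit read from the values (decimals, sums of 448986 to 486271 per library). Which program made them, its annotation and its strand setting are not given in the sources used here. Another 4 columns with values in 3 rows were not used. RPS18 is listed at 0 throughout, so a 0 can be a failed estimate.

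Column names were matched to the sample descriptions in the labels. The values were used without further scaling. A row was tested if 3 or more libraries had at least 1 FPKM, and 157 small RNA rows were left out. limma 3.58.1 in R 4.3.3 was run on log2(FPKM + 0.1), comparing the 2 groups with a trended, robust prior variance. P-values were adjusted by Benjamini and Hochberg's method over 11791 genes. The fit was tested on simulated data. Relative and absolute depth came from the spacing of low values: 42.4% of 1879 low genes stepped in whole units (tolerance 0.02). The absolute scale had quartiles of 49800000 and 58700000 fragments, and counting errors cover counting only. Sequence, GC content and length came from GENCODE release 29 and RefSeq, both GRCh38, so no coordinates of the hg19 table are given, and GC content was available for 94.1% of tested genes.

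The genes and lists were chosen with earlier results of these data known. Named from each related list were at most 5 tested genes by smallest adjusted p. CTGF, the targets that fell, MAPK8, SMAD1, SMAD5, SMAD9, LTBP2, INHBA, ITGAV, THBS1, TGFB3, ITGB6 and ITGB8 were added after their values were seen. The sums and the ratios not tested were also added then. Alternatives were other pseudocounts, filters, scalings and variance models, GC and length correction, a replicate block and leaving out each library.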

Additional observations from a re-analysis of the deposited data

How the results depend on the processing

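The 5 changed genes of the family, SMAD3, TGFBR1, TGFBR2, SMAD7 and TGFB1, kept their direction and their call in every alternative that tested them (16 each, 15 for SMAD7, which a mean of at least 5 FPKM leaves out). Log2 fold changes ran from 0.35 to 0.41 for SMAD3, 0.34 to 0.42 for TGFBR1, 0.24 to 0.29 for TGFBR2, 0.25 to 0.37 for SMAD7 and -0.38 to -0.23 for TGFB1, whose highest adjusted p was 0.0327. The 5 others had no call in any alternative. Without si-NRDE2-2 replicate 3 TGFBR3 turned to -0.03 (range without single libraries -0.03 to 0.07), and without si-NRDE2-2 replicate 1 CTGF turned to -0.02 (-0.02 to 0.06). ID3 turned to 0.02 with GC and length trends removed, to 0.05 without si-Control replicate 2 and to 0.13 without si-NRDE2-2 replicate 1 (-0.10 to 0.13). ANKLE2 lost its call without si-Control replicate 2 (adjusted p = 0.0665). The cause was not tested. The number of changed genes in the whole table ran from 3927 to 6083 against 5185, and that of the 30 tested TGF-beta targets from 17 to 22 against 18. A filter of a mean of at least 5 FPKM tested 20 targets, of which 14 changed, and no filter tested 32, of which 18 changed. With the replicate number as a block 4680 genes changed, no call in the family was lost and SMAD1 was called lower (limma adjusted p = 0.0138). Same-numbered libraries did not deviate together (correlations of -0.121, 0.104 and -0.118). That gave no sign of pairs but cannot exclude them, and the labels do not give the source of each replicate. Without single libraries the log2 differences of the ratios ran from 0.40 to 0.46 for SMAD3 to SMAD2, 0.26 to 0.47 for TGFB2 to TGFB1 and -0.14 to -0.09 for TGFBR2 to TGFBR1. SMAD6 had the fewest estimated fragments and the widest interval of the family, and what widened it was not tested.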
